A study of Homo sapiens with 8 samples.

Results

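The HOXD cluster is a run of homeobox genes on chromosome 2, here the 9 genes HOXD13, HOXD12, HOXD11, HOXD10, HOXD9, HOXD8, HOXD4, HOXD3 and HOXD1, found by their symbols among the 61209 genes of the deposited count table. All 9 had a row in the table, 8 had enough reads to be tested, and HOXD1 had 0 reads in every library. With FGF8 and FGF10 each of the 8 tested genes was higher than with Mock treatment, in Pdgfra-positive and in Pdgfra-low cells. Of all tested genes 25.8% and 27.9% were higher there by the same test. In cells that had received the factors, 7 of the 8 were higher in Pdgfra-positive than in Pdgfra-low cells, beside 19.6% of all tested genes. The HOXD8 call among these 7 was narrow and was lost under several alternative settings.

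RNA was sequenced from cells made from H1, a widely used line of human embryonic stem cells, that carry the reporter Msx1-P2A-tdTomato, which places a red fluorescent protein behind MSX1, a homeobox gene active in limb mesenchyme. The 4 groups, with 2 libraries each, were Msx1+Pdgfra+ cells with FGF8+10, Msx1+Pdgfralow cells with FGF8+10, Msx1+Pdgfra+ cells with Mock and Msx1+Pdgfralow cells with Mock, here called Pdgfra-positive and Pdgfra-low cells. All groups carried the reporter, had been taken through a medium that the labels call MPS (50 ng/mL Activin A, 40 ng/mL BMP4, 10 ng/mL FGF2 and 6 μM CHIR99021) from day 0 and an LPM medium (60 ng/mL BMP4 and 1 μM CHIR99021) from day 1, and were collected on day 8. FGF8 and FGF10 were given at 500 ng/mL each from day 4, when 25000 cells per well were spun into pellets; the labels print this medium for every sample and do not describe the Mock medium. The cells come from 1 line, and the populations are gates set on cells that had already been treated, so the values describe the sorted cells and not the whole culture. The titles number the libraries as biological replicates without saying whether these were separate differentiations, so p-values measure the spread between these libraries. In bulk RNA, fewer cells that express a gene and less of its RNA per cell cannot be told apart.

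HOX genes encode transcription factors that give cells their position along the body axis. Genes of a cluster are turned on in the order in which they lie on the chromosome, from HOXD1 at the 3′ end to HOXD13 at the 5′ end, so that the 5′ genes mark later and more posterior cells. In the mouse limb bud the 5′ Hoxd genes are used in an early phase that patterns the arm and forearm and in a late phase in the digits, driven by enhancers on opposite sides of the cluster, and PBX and MEIS proteins bind DNA together with HOX proteins.

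The sequences before the gene starts are shown for HOXD13, HOXD12, HOXD11 and HOXD10, which lie side by side at the 5′ end and hold both the largest FGF8+10 difference, that of HOXD12, and a small one, that of HOXD13. HOXD8 is added because its window holds one of the motifs searched for. Of the 9 genes, 8 matched the RefSeq promoter table of build GRCh38.p14, and HOXD9 did not. The starts are those of RefSeq. In the annotation used for counting, HOXD11 begins further upstream at 176104216 and HOXD10 at 176108790. Their windows therefore lie inside the span over which reads were counted. The same holds for HOXD3, which begins there at 176136612 and was searched but is not printed. The 250 bases before the start, all on the plus strand, span chr2:176092471-176092720 for HOXD13, chr2:176099545-176099794 for HOXD12, chr2:176107030-176107279 for HOXD11, chr2:176116528-176116777 for HOXD10 and chr2:176129455-176129704 for HOXD8. Capitals mark a match to the PBX with HOX motif TGATTGAT (in HOXD11, on the minus strand) or to the CDX motif TTTATG (in HOXD8, on the plus strand).
HOXD13: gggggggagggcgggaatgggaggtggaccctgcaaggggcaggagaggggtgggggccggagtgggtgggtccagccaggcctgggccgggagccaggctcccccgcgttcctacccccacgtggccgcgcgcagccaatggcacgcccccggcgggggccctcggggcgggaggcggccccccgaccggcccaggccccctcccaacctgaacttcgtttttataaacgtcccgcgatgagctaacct
HOXD12: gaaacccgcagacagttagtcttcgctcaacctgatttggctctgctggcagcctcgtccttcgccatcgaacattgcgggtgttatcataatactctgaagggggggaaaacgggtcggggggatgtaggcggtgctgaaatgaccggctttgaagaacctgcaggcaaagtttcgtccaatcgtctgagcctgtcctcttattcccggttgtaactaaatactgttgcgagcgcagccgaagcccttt
HOXD11: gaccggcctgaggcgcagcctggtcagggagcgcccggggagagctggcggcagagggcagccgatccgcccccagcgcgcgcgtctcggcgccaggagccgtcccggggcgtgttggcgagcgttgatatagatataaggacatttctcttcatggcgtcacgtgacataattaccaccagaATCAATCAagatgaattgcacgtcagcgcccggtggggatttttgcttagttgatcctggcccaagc
HOXD10: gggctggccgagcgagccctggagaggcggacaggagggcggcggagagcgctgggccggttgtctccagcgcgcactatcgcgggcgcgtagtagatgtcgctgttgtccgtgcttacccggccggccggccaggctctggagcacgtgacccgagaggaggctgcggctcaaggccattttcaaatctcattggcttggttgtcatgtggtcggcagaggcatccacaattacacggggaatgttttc
HOXD8: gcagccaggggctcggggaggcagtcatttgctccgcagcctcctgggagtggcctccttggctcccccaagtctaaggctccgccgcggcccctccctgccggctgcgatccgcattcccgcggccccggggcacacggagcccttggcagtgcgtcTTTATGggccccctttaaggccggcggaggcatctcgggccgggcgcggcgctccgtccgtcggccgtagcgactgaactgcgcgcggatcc

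Each window was searched on both strands for 4 motifs, none of which overlapped another in these windows. HOXD11 held the only PBX with HOX motif among the 8 windows, 67 bases before the start, a motif found in 0.416% of 35116 promoter windows of the same length. HOXD8 held the only CDX motif, 92 bases before the start, found in 9.64% of all windows. The ETS core CCGGAA and the MEIS motif TGACAG, present in 14.5% and 13% of all windows, were in none of the 8. A match describes letters and is no binding site by itself. The windows also differed in composition: HOXD13 had 74% G and C with 21 CpG sites, HOXD12 53.2% with 16, and HOXD4 47.6% with 4, beside medians of 58% and 11 over all windows.

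The cluster was read mostly from its middle. Levels are given as RPKM, counts scaled by annotated exon length and by the library total after a correction for composition (TMM), so that genes of different length can be set beside each other. The 9 genes together summed to 86.2 ± 1.11 RPKM in FGF8+10 Pdgfra-positive cells and to 34.4 ± 1.12 in Mock Pdgfra-positive cells, and to 47.2 ± 1.16 in FGF8+10 Pdgfra-low cells and 19.9 ± 0.142 in Mock Pdgfra-low cells (mean ± SD, n = 2). HOXD9, HOXD10 and HOXD11 made up 83.8% ± 0.285 of that sum in FGF8+10 Pdgfra-positive cells and 79.7% ± 0.334 in Mock Pdgfra-positive cells, and 80.7% ± 0.270 in FGF8+10 Pdgfra-low cells and 71.4% ± 1.65 in Mock Pdgfra-low cells.

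**Figure D1:**
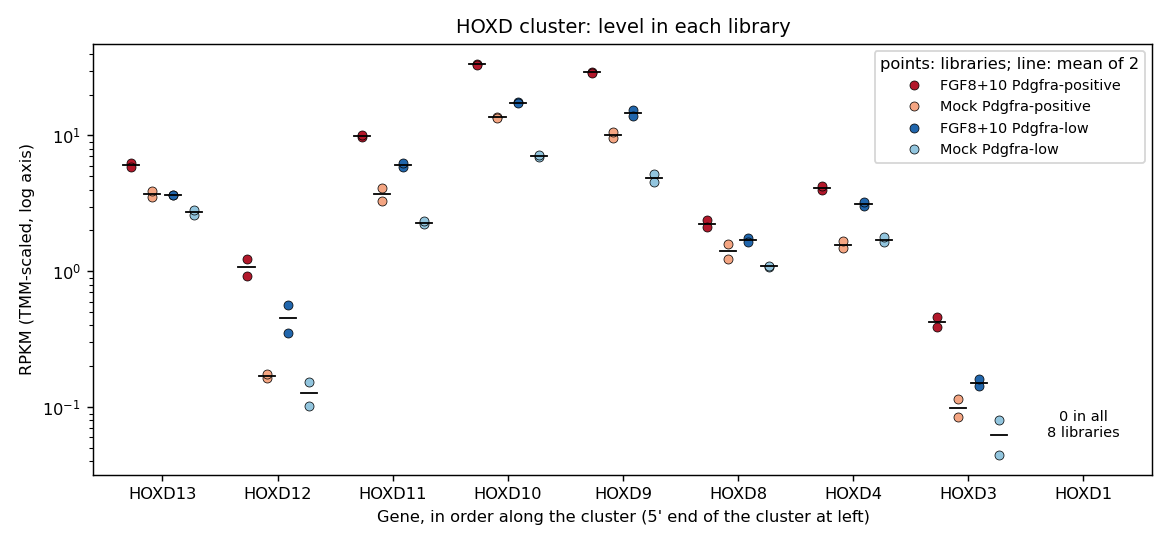
Level of each HOXD gene in every library, in RPKM on a log axis, with genes in their order along the cluster and a line at the mean of each group of 2. In FGF8+10 Pdgfra-positive cells HOXD10 and HOXD9 stand highest at 33.3 and 29.0 RPKM, HOXD3 lowest at 0.423 RPKM, and HOXD1 had no reads.

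HOXD13, the gene at the 5′ end, is required for digits, and its mutations cause synpolydactyly in people. It had 6.30 and 5.85 RPKM in FGF8+10 Pdgfra-positive libraries, against 3.54 and 3.90 in Mock Pdgfra-positive libraries. In Pdgfra-low cells it had 3.63 and 3.62 RPKM with FGF8+10 and 2.59 and 2.84 with Mock. Libraries with the factors did not overlap those without them in either population, and the FGF8+10 Pdgfra-low libraries sat at the level of the Mock Pdgfra-positive ones. Here and for the members below, overlap between groups of 2 libraries is a description, and its share over all genes was not counted.

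HOXD12, which acts with HOXD13 in the posterior limb bud of the mouse, was low and had few counts under Mock. Its RPKM was 1.23 and 0.920 in FGF8+10 Pdgfra-positive libraries, against 0.165 and 0.177 in Mock Pdgfra-positive libraries, which rest on 214 and 161 counts against 19 and 22 counts. With FGF8+10 the Pdgfra-low libraries had 0.564 and 0.351 RPKM, against 0.102 and 0.154 with Mock. Every FGF8+10 library of either population was above every Mock library.

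HOXD11, which patterns the forearm together with HOXA11 in the mouse, stood at 9.72 and 10.1 RPKM in FGF8+10 Pdgfra-positive libraries and at 3.29 and 4.08 in Mock Pdgfra-positive libraries. Pdgfra-low libraries had 5.87 and 6.23 RPKM with FGF8+10, against 2.21 and 2.35 with Mock. Here too each FGF8+10 library lay above each Mock library.

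HOXD10, used in limb patterning and in the motor neurons that reach the hindlimb in the mouse, was the most abundant member in all 4 groups. It reached 33.8 and 32.9 RPKM in FGF8+10 Pdgfra-positive libraries, against 13.8 and 13.4 in Mock Pdgfra-positive libraries. Values of 17.6 and 17.3 RPKM were found in FGF8+10 Pdgfra-low libraries and 6.95 and 7.18 in Mock Pdgfra-low libraries. The groups were far apart relative to the spread between replicates, and no library of one group overlapped another group.

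HOXD9, which like HOXD10 acts in the proximal limb of the mouse, ranked next in each group. Its libraries had 29.3 and 28.8 RPKM in FGF8+10 Pdgfra-positive cells, against 9.61 and 10.6 in Mock Pdgfra-positive cells. In Pdgfra-low cells they had 15.4 and 13.8 RPKM with FGF8+10 and 5.22 and 4.53 with Mock. The order of the groups was that of HOXD10, with FGF8+10 Pdgfra-positive libraries highest and Mock Pdgfra-low libraries lowest.

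HOXD8, a trunk gene of the middle of the cluster, had 2.37 and 2.12 RPKM in FGF8+10 Pdgfra-positive libraries, against 1.59 and 1.23 in Mock Pdgfra-positive libraries. It had 1.77 and 1.63 RPKM in FGF8+10 Pdgfra-low libraries and 1.07 and 1.10 in Mock Pdgfra-low libraries. The lower FGF8+10 Pdgfra-low library was close to the higher Mock Pdgfra-positive one, and within each population the treatments did not overlap.

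HOXD4, a gene of the hindbrain and neck that responds to retinoic acid, had 3.94 and 4.28 RPKM in FGF8+10 Pdgfra-positive libraries, against 1.48 and 1.66 in Mock Pdgfra-positive libraries. Pdgfra-low libraries had 3.04 and 3.24 RPKM with FGF8+10, against 1.63 and 1.79 with Mock. It was the only tested member for which the Mock libraries of the 2 populations overlapped.

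HOXD3, needed for the first neck vertebrae in the mouse, was the lowest member with reads. It had 97 and 115 counts, or 0.388 and 0.458 RPKM, in FGF8+10 Pdgfra-positive libraries and 19 and 15 counts, or 0.115 and 0.0842 RPKM, in Mock Pdgfra-positive libraries. In Pdgfra-low cells the counts were 28 and 35 with FGF8+10 and 10 and 18 with Mock, or 0.143 and 0.161 against 0.0444 and 0.0805 RPKM. FGF8+10 libraries lay above Mock libraries throughout, on few reads under Mock.

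HOXD1, the 3′ gene, had 0 counts in all 8 libraries. A count of up to 6 per library, which are 3 read pairs since both mates were counted, is the limit that a count of 0 allows, for counting error only. Only 752 of its 1886 exon bases were its own, because reads over bases shared with HAGLR, MIR7704 and ENSG00000279160 were not counted. Over these 752 bases the limit for 1 library is 0.117 to 0.179 RPKM, above the HOXD3 level in each Mock library. No single Mock library could therefore tell HOXD1 RNA at that level from none, and the Mock libraries were not tested together. HOXD3 is given here over all its exon bases. In FGF8+10 Pdgfra-positive libraries the limit was 0.118 and 0.117 RPKM, below HOXD3 at 0.388 and 0.458.

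Levels did not follow the order of the genes on the chromosome. In FGF8+10 cells of either population the order by mean RPKM was HOXD10, HOXD9, HOXD11, HOXD13, HOXD4, HOXD8, HOXD12 and HOXD3, and neighbours in this order did not overlap between libraries. Under Mock HOXD13 stood above HOXD11, at 3.72 against 3.69 RPKM in Pdgfra-positive cells, where their libraries overlapped, and at 2.72 against 2.28 RPKM in Pdgfra-low cells, where they did not. HOXD4 and HOXD8 also overlapped in Mock Pdgfra-positive cells, at 1.57 and 1.41 RPKM. HOXD10 and HOXD11 share 452 exon bases that collected no counts, and counting each gene over its own exon bases raised HOXD10 to 40.7 ± 0.776 RPKM and HOXD11 to 12.6 ± 0.330 RPKM in FGF8+10 Pdgfra-positive cells (SD, n = 2). Over all 4 groups this changed 6 of 36 rank positions, and it turned the Mock order of HOXD11 and HOXD13 round, with HOXD11 at 4.69 and HOXD13 at 3.72 RPKM in Pdgfra-positive cells and at 2.90 and 2.72 RPKM in Pdgfra-low cells. In Mock Pdgfra-positive cells it also put HOXD8, at 1.87 ± 0.34 RPKM, above HOXD4, at 1.57 ± 0.13 RPKM.

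With FGF8+10 the HOXD13 share of the cluster sum was smaller although the gene itself was higher. It took 7.24% and 6.85% of the summed RPKM in FGF8+10 Pdgfra-positive libraries, against 10.6% and 11.1% in Mock Pdgfra-positive libraries, and 7.56% and 7.81% in FGF8+10 Pdgfra-low libraries, against 13.1% and 14.2% in Mock Pdgfra-low libraries. The libraries of the treatments did not overlap in this share. The HOXD12 share was larger in Pdgfra-positive cells, with 1.41% and 1.08% in FGF8+10 libraries and 0.492% and 0.504% in Mock libraries. In Pdgfra-low cells it was 1.17% and 0.757% in FGF8+10 libraries and 0.515% and 0.769% in Mock libraries, which overlapped.

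**Figure D2:**
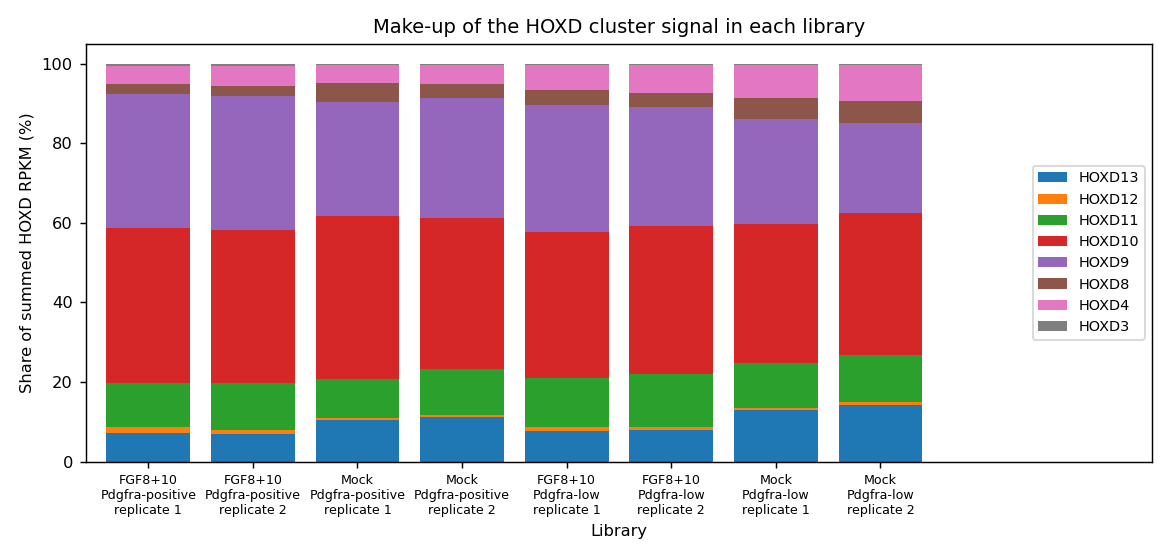
Share of each HOXD gene in the summed RPKM of the cluster, in percent, for each of the 8 libraries. The HOXD13 segment is 7.24% and 6.85% in FGF8+10 Pdgfra-positive libraries and 10.6% and 11.1% in Mock Pdgfra-positive libraries, and HOXD9 with HOXD10 fills most of every bar.

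The first comparison asks which HOXD genes differ with FGF8+10 in Pdgfra-positive cells. All 8 tested members were higher with FGF8+10 than with Mock at an adjusted p under 0.05 (edgeR quasi-likelihood test over 22554 genes, Benjamini-Hochberg adjustment), where 50.9% of all tested genes were called, 25.8% higher and 25.1% lower. Library totals without TMM moved the median gene by 0.171 on the log2 scale and split the calls of all genes into 8164 higher and 3991 lower, beside 5811 higher and 5658 lower with TMM, and under both scalings all 8 members were higher. HOXD12 had the largest log2 fold change, 2.64 ± 0.34 (SE), or 6.28-fold (adjusted p = 6.23e-09). HOXD3 followed with 2.08 ± 0.41 (adjusted p = 3.25e-05), and both rest on the lowest counts of the cluster. The abundant members HOXD9, HOXD11 and HOXD10 had log2 fold changes of 1.52 ± 0.071, 1.42 ± 0.11 and 1.30 ± 0.052, between 2.45-fold and 2.87-fold. HOXD4 had 1.38 ± 0.20 (adjusted p = 8.16e-08). The smallest differences were those of HOXD13, 0.71 ± 0.11 (adjusted p = 3.24e-07), and HOXD8, 0.67 ± 0.17 (adjusted p = 0.000704). The 95% interval of HOXD13, 0.49 to 0.93, lay wholly below that of HOXD10, 1.19 to 1.40. The median log2 fold change of the 8 members was 1.40, beside −0.01 over all tested genes.

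In Pdgfra-low cells the same 8 members were higher with FGF8+10 than with Mock, where 55.7% of all tested genes were called and 27.9% were called higher. Without TMM the calls of all genes were 8113 higher and 4672 lower, beside 6300 and 6256 with it, and the members stayed at 8 higher. HOXD12 again had the largest log2 fold change, 1.82 ± 0.36 (adjusted p = 2.54e-05), or 3.57-fold. HOXD9, HOXD11 and HOXD10 had 1.58 ± 0.078, 1.41 ± 0.11 and 1.31 ± 0.056, between 2.47-fold and 2.99-fold. HOXD4 had 0.87 ± 0.20 (adjusted p = 0.000167), HOXD8 0.65 ± 0.17 (adjusted p = 0.00131) and HOXD13 0.42 ± 0.11 (adjusted p = 0.00168). HOXD3 had 1.28 ± 0.45 (adjusted p = 0.0149). That call was lost without FGF8+10 Pdgfra-low replicate 2 (adjusted p = 0.0664) and without Mock Pdgfra-low replicate 1 (log2 fold change 0.91, adjusted p = 0.154). The median of the members was 1.29, beside −0.02 over all tested genes.

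**Figure D3:**
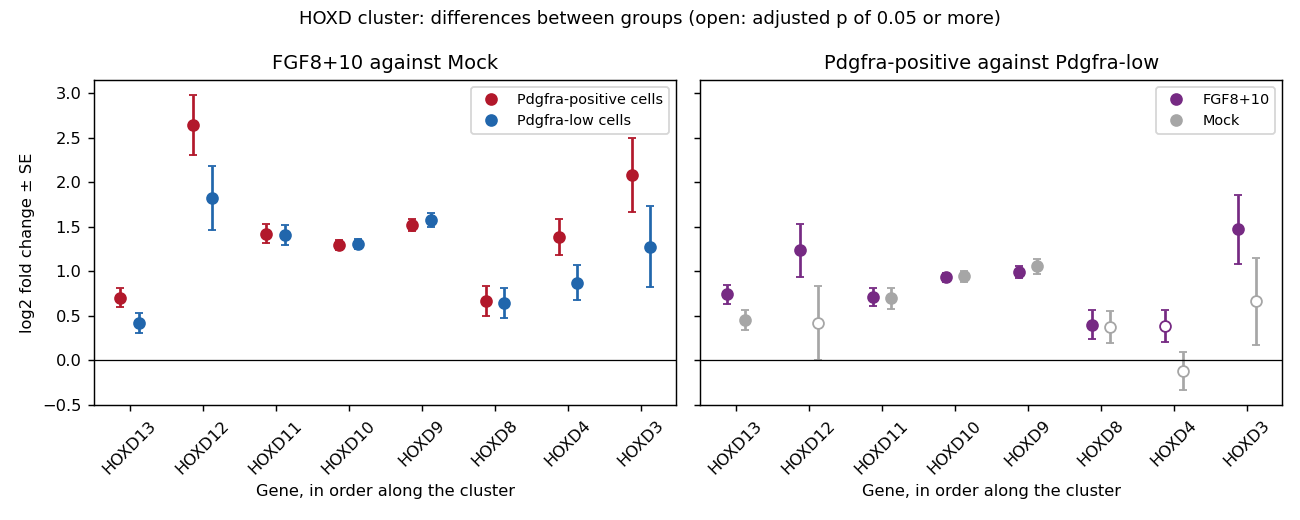
Differences between groups for the 8 tested HOXD genes as log2 fold change with its standard error, FGF8+10 against Mock on the left and Pdgfra-positive against Pdgfra-low on the right; open points have an adjusted p of 0.05 or more. HOXD12 has the largest FGF8+10 difference, 2.64 and 1.82 in the 2 populations, HOXD9, HOXD10 and HOXD11 have nearly equal values in both, and HOXD4 lies at −0.12 between populations under Mock.

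The FGF8+10 difference was then compared between the populations. No member passed the test (0 of 8 at an adjusted p under 0.05, with 0 of 8 at an unadjusted p under 0.05 in edgeR and 0 calls by DESeq2), where 26.0% of all tested genes did. The largest estimates were those of HOXD12, 0.82 (95% interval −0.21 to 1.85), HOXD3, 0.81 (−0.46 to 2.07), and HOXD4, 0.51 (−0.06 to 1.08), each as the log2 difference in Pdgfra-positive minus that in Pdgfra-low cells. HOXD13 had 0.29 (−0.03 to 0.61). Narrow intervals around 0 were found for the abundant HOXD10, −0.01 (−0.16 to 0.14), and HOXD9, −0.06 (−0.27 to 0.15). The intervals of HOXD12 and HOXD3, which had the fewest reads, were the widest.

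With FGF8+10, 7 of 8 members were higher in Pdgfra-positive than in Pdgfra-low cells, where 41.4% of all tested genes were called and 19.6% were called higher. HOXD3 had a log2 fold change of 1.47 ± 0.39 (adjusted p = 0.00154) and HOXD12 of 1.24 ± 0.30 (adjusted p = 0.000569). HOXD9, HOXD10, HOXD13 and HOXD11 had 1.00 ± 0.068, 0.93 ± 0.050, 0.74 ± 0.11 and 0.71 ± 0.099. HOXD8 passed narrowly at 0.40 ± 0.16 (adjusted p = 0.0441), and that call was lost without any 1 of the 4 FGF8+10 libraries (adjusted p of 0.0651 to 0.260). HOXD4 had 0.39 ± 0.18 and did not pass (adjusted p = 0.0897), with a 95% interval of 0.02 to 0.75.

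With Mock, 4 of 8 members were higher in Pdgfra-positive than in Pdgfra-low cells, where 25.8% of all tested genes were called and 12.4% were called higher. These were HOXD9 with 1.06 ± 0.082, HOXD10 with 0.94 ± 0.058, HOXD11 with 0.70 ± 0.12 and HOXD13 with 0.46 ± 0.12 (adjusted p = 0.00204). HOXD3 with 0.66 ± 0.49, HOXD12 with 0.42 ± 0.41 and HOXD8 with 0.37 ± 0.18 did not pass (adjusted p of 0.366, 0.531 and 0.127). Their libraries did not overlap between the populations, which with 2 libraries per group is no sign of a difference by itself. HOXD3 and HOXD12 rest there on 10 to 24 counts per library. HOXD4 had −0.12 ± 0.21 (adjusted p = 0.754) with overlapping libraries. The comparisons share libraries: each FGF8+10 group stands in both a treatment and a population comparison, and so does each Mock group.

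The genes around the cluster were examined within 500 kb on either side. The table holds 23 rows there that are not members, and 9 had enough counts to be tested. With FGF8+10, 3 of the 9 were higher in Pdgfra-positive cells and 4 in Pdgfra-low cells, and 0 were lower, with medians of 0.38 and 0.23 on the log2 scale. Of all tested genes 25.8% were higher and 25.1% lower in Pdgfra-positive cells, and 27.9% and 27.7% in Pdgfra-low cells. With 9 genes, the counts of higher and of lower genes here are descriptions. They were not tested against these shares, and nothing about the surroundings is read from them. HOXD-AS2, a long noncoding RNA on the opposite strand of HOXD8, differed most, with 18.9 ± 0.22 CPM, counts scaled by the corrected library total alone, in FGF8+10 and 6.27 ± 0.096 CPM in Mock Pdgfra-positive cells (SD, n = 2; log2 fold change 1.59 ± 0.11) and 8.59 ± 1.0 CPM in FGF8+10 and 3.44 ± 0.23 CPM in Mock Pdgfra-low cells (1.32 ± 0.13). Counting ignored strand, so reads of HOXD-AS2 and of HOXD8 cannot be told apart where they overlap, and the 642 exon bases they share gave no counts to either gene.

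Beyond the ends of the cluster LNPK and MTX2 had smaller log2 fold changes than any tested member, while EVX2 reached the size of HOXD8 in Pdgfra-low cells. LNPK, an endoplasmic reticulum shaping gene beyond the 5′ end, had 129 ± 3.1 CPM in FGF8+10 and 105 ± 3.0 CPM in Mock Pdgfra-positive cells (log2 fold change 0.31 ± 0.035), and 0.16 ± 0.035 in Pdgfra-low cells. MTX2, a mitochondrial import gene beyond the 3′ end, had log2 fold changes of 0.38 ± 0.074 and 0.23 ± 0.072. EVX2, the homeobox gene next to HOXD13, had 126 and 132 counts in FGF8+10 Pdgfra-positive libraries, against 86 and 87 counts in Mock Pdgfra-positive libraries. Scaled to the library totals these are 1.90 ± 0.055 and 1.87 ± 0.086 CPM, a log2 fold change of 0.03 ± 0.26 (adjusted p = 0.938). In Pdgfra-low cells it rose by 0.65 ± 0.27 (adjusted p = 0.0412).

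**Figure D4:**
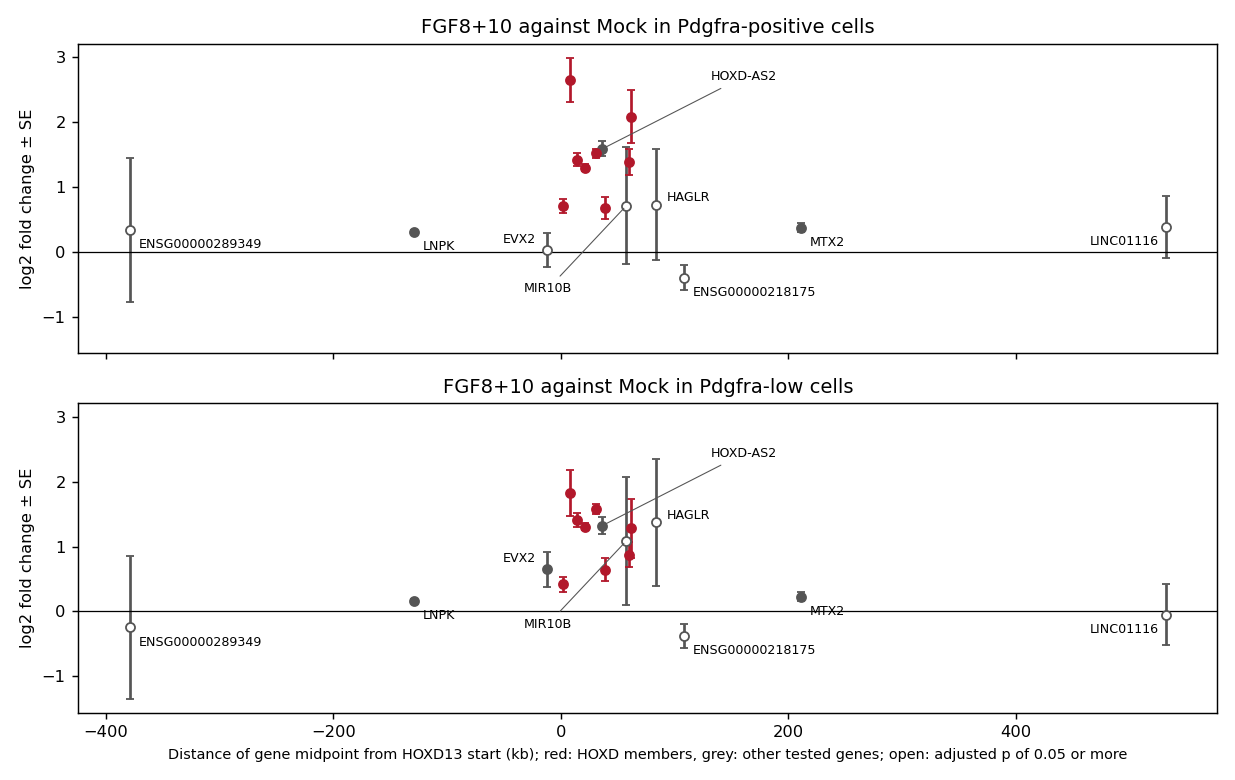
FGF8+10 against Mock for the tested genes within 500 kb of the HOXD cluster, as log2 fold change with its standard error, against the distance of each gene's midpoint from the HOXD13 start in kb. Red HOXD members reach 2.64, grey HOXD-AS2 lies among them at 1.59 and 1.32, and LNPK and MTX2 on either side stay at or under 0.38.

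The members were set beside the HOX genes of the other clusters. Of 39 HOX genes in the table, HOXD included, 35 were tested, and with FGF8+10 26 were higher and 3 lower in Pdgfra-positive cells, and 27 higher and 3 lower in Pdgfra-low cells. By cluster in Pdgfra-positive cells, 8 of 8 tested HOXD, 6 of 11 HOXA, 8 of 9 HOXB and 4 of 7 HOXC genes were higher. In Pdgfra-low cells the counts were 8 of 8, 7 of 11, 8 of 9 and 4 of 7. Of all tested genes 25.8% were higher and 25.1% lower in Pdgfra-positive cells, and 27.9% and 27.7% in Pdgfra-low cells. The median log2 fold changes in Pdgfra-positive cells were 1.40 for HOXD, 0.43 for HOXA, 1.15 for HOXB and 0.52 for HOXC. In Pdgfra-low cells they were 1.29 for HOXD, 1.10 for HOXA, 1.52 for HOXB and 0.59 for HOXC, so that HOXB stood above HOXD. HOXC10, a hindlimb-level gene, had the largest HOX difference with 4.78 ± 0.90 CPM in FGF8+10 and 0.468 ± 0.19 CPM in Mock Pdgfra-positive cells, a log2 fold change of 3.36 ± 0.26.

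The 3 HOX genes that fell are named here after their values were seen, and all are paralogues of 5′ HOXD genes that rose. HOXA13, the partner of HOXD13 in the digits, had 70.7 ± 0.39 CPM in FGF8+10 and 141 ± 2.9 CPM in Mock Pdgfra-positive cells, a log2 fold change of −0.99 ± 0.036, and −1.34 ± 0.038 in Pdgfra-low cells. HOXA11, the partner of HOXD11, had −0.59 ± 0.11 and −0.55 ± 0.11. HOXB13, the last of the HOXB cluster, had −0.23 ± 0.049 and −0.56 ± 0.051, and with library totals in place of TMM its Pdgfra-positive call was lost while the other calls of these 3 genes held. In Pdgfra-positive against Pdgfra-low cells under FGF8+10 the HOX genes split, with 11 higher and 10 lower of 35, among them HOXB2 at −1.12 and HOXC10 at −1.07. Of all tested genes 19.6% were higher and 21.7% lower there. The HOXD members were 7 of those 11.

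**Figure D5:**
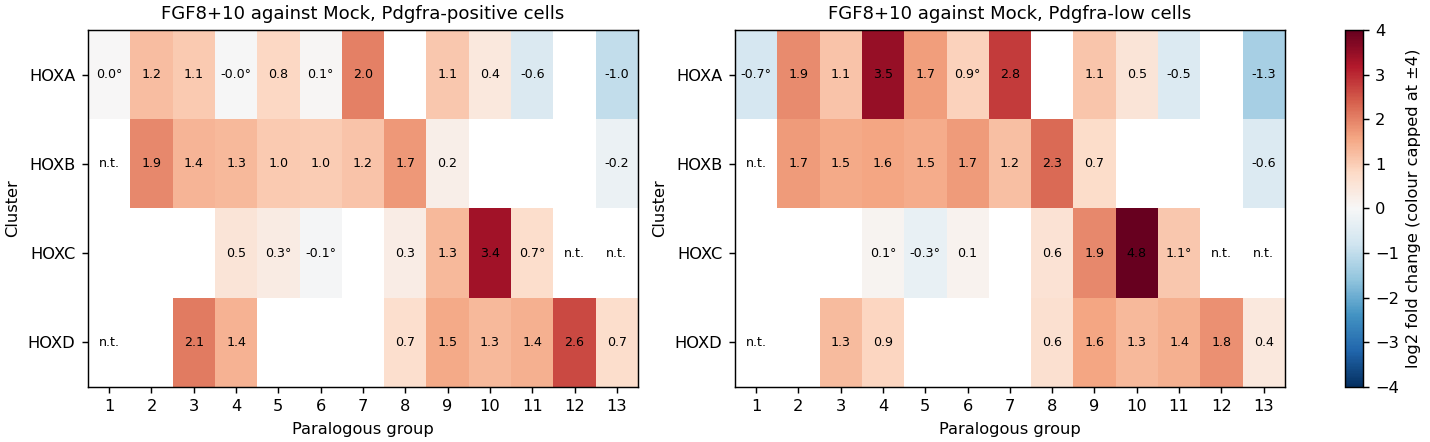
FGF8+10 against Mock for the HOX genes of the 4 clusters by paralogous group, as log2 fold change, in Pdgfra-positive cells on the left and Pdgfra-low cells on the right; a ring marks an adjusted p of 0.05 or more, n.t. a gene not tested, and a blank cell no gene. The HOXD row is positive wherever tested, and HOXA11, HOXA13 and HOXB13 are negative in both panels.

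Other genes of the HOX system followed no single direction. With FGF8+10, 25.8% of all tested genes were higher and 25.1% lower in Pdgfra-positive cells, and 27.9% and 27.7% in Pdgfra-low cells. These shares stand beside the counts of this list and of the gene and marker lists below. Of 9 HOX cofactors, 4 were higher and 3 lower with FGF8+10 in Pdgfra-positive cells, and 2 higher and 5 lower in Pdgfra-low cells, with library totals in place of TMM giving 6 and 1, and 4 and 4. PBX3 rose most, with 53.5 ± 0.85 CPM in FGF8+10 and 18.0 ± 0.67 CPM in Mock Pdgfra-positive cells (log2 fold change 1.57 ± 0.063), and 1.45 ± 0.061 in Pdgfra-low cells. PBX4 fell by 0.92 and by 1.19 on the log2 scale, at or under 2.73 CPM in every group. MEIS2, a marker of the proximal limb in the mouse, rose by 0.49 in both populations. The other MEIS genes did not rise, with log2 fold changes in Pdgfra-positive and Pdgfra-low cells of 0.0007 and −0.40 for MEIS1, and −0.25 and −0.39 for MEIS3.

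Of 16 signals and factors that act upstream of HOX genes, 10 were tested. In Pdgfra-positive cells 4 were higher and 1 lower with FGF8+10, where 50.9% of all tested genes were called. In Pdgfra-low cells 3 were higher and 4 lower, where 55.7% were called. With library totals the counts were 6 and 1, and 4 and 3. CDX2, a homeobox factor that opens HOX clusters in the posterior embryo, had 112 ± 4.3 CPM in FGF8+10 and 34.8 ± 3.4 CPM in Mock Pdgfra-positive cells, a log2 fold change of 1.69 ± 0.049, and 2.36 ± 0.052 in Pdgfra-low cells. ALDH1A2, the enzyme that makes retinoic acid, had 79.0 ± 5.4 CPM in FGF8+10 and 7.73 ± 0.89 CPM in Mock Pdgfra-positive cells. Its log2 fold change was 3.35 ± 0.076 there and larger, 6.70, in Pdgfra-low cells. RARG, a retinoic acid receptor, fell by 0.69 and by 1.25. SHH, the signal of the posterior limb margin, was at or under 0.265 CPM in every group and not called (adjusted p of 0.0994 and 0.133).

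The polycomb and trithorax subunits keep HOX clusters closed or open. Of 17, 5 were higher and 5 lower in Pdgfra-positive cells, where 50.9% of all tested genes were called. In Pdgfra-low cells 5 were higher and 9 lower, where 55.7% were called. These counts became 10 and 2, and 7 and 6, with library totals. EZH2, the catalytic subunit of polycomb complex PRC2, had 77.4 ± 0.85 CPM in FGF8+10 and 35.1 ± 1.6 CPM in Mock Pdgfra-positive cells (log2 fold change 1.14 ± 0.047). CBX2 rose by 0.78 and CBX6 fell by 1.29, both chromodomain subunits of PRC1. CBX7, another, rose by 0.68 in Pdgfra-positive cells and fell by 0.59 in Pdgfra-low cells. Of 8 genes of CTCF and cohesin, which shape the domains on either side of the cluster, 6 were higher and 1 lower in Pdgfra-positive cells and 6 higher and 0 lower in Pdgfra-low cells (7 and 0, and 8 and 0, with library totals), led by SMC3 with 0.59 ± 0.033 and 0.76 ± 0.032.

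Limb genes tied to posterior HOX genes in mouse studies moved in both directions, with 7 higher and 3 lower of 11 in Pdgfra-positive cells and 6 and 4 in Pdgfra-low cells (7 and 3 in each with library totals). FGF10, the growth factor gene of the limb mesenchyme and not the protein that was added, had 45.1 ± 1.1 CPM in FGF8+10 and 2.59 ± 0.18 CPM in Mock Pdgfra-positive cells, a log2 fold change of 4.12 ± 0.096. GREM1, a BMP antagonist, had 5.89 ± 0.046 CPM in FGF8+10 and 0.142 ± 0.084 CPM in Mock Pdgfra-positive cells. BMP2 rose by 2.16. SHOX2, a gene of the proximal limb, had 14.4 ± 0.10 CPM in FGF8+10 and 76.5 ± 0.50 CPM in Mock Pdgfra-positive cells and fell by 2.41. These lists were chosen with results of these data known and their counts are descriptions.

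Profiles over the 8 libraries were compared as a description. Every library enters each comparison and the profiles mainly carry the differences between the 4 groups. Among the 8 members Pearson correlations of log2 CPM ran between 0.768, for HOXD13 with HOXD4, and 0.995, for HOXD9 with HOXD10. Of 15132 genes with a mean of at least 1 CPM, HOXD10 was the 3rd most like HOXD9, after CER1 at 0.998 and ST3GAL1 at 0.995. The genes most like HOXD10 were UBA7, BTN3A1 and SNED1, each at 0.996 or above, with HOXD9 its nearest HOX gene. TP53INP1, PDE3A and RNF146 were most like HOXD11. For HOXD13 they were ARHGAP42, LMBR1L and LRRC75B, and the nearest HOX gene, HOXC4 at 0.962, stood at rank 123. LRRC14, SNAP29 and FAM222B were most like HOXD12, TPST2, COL27A1 and HLA-DMB most like HOXD8, and ATRNL1, HSDL1 and RIN2 most like HOXD4.

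The sort and the cell types were checked with marker genes. PDGFRA, the receptor used for the sort, averaged 714 CPM in the Pdgfra-positive gate and 286 CPM in the Pdgfra-low gate with FGF8+10, and 454 and 192 CPM with Mock, in the order of the gates. MSX1 had 50.3 CPM in FGF8+10 and 21.7 CPM in Mock Pdgfra-positive cells, and 50.7 CPM in FGF8+10 and 26.2 CPM in Mock Pdgfra-low cells, so that both sort genes were higher with FGF8+10 in each gate. Of 8 limb mesenchyme markers, 7 were tested, with 3 higher and 3 lower under FGF8+10 in Pdgfra-positive cells and 1 higher and 5 lower in Pdgfra-low cells (median log2 fold change 0.11 and −0.53). Their summed level was 507 to 512 CPM in FGF8+10 and 498 to 502 CPM in Mock Pdgfra-positive libraries, and 317 to 319.6 CPM in FGF8+10 and 478 to 482 CPM in Mock Pdgfra-low libraries. LHX9 was at or near 0 in all groups. PRRX1, a defining marker, had 273 CPM in FGF8+10 and 247 CPM in Mock Pdgfra-positive cells, and 144 CPM in FGF8+10 and 195 CPM in Mock Pdgfra-low cells.

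Markers of other cells moved with the treatment as well, and their part in the HOXD differences was not tested. Of 6 endothelial markers, 4 were higher and 1 lower with FGF8+10 in Pdgfra-positive cells and 6 higher in Pdgfra-low cells, and their summed level was 2123 to 2133 CPM in FGF8+10 and 1327 to 1340 CPM in Mock Pdgfra-positive libraries, most of it KDR, and 2550 to 2555 CPM in FGF8+10 and 1361 to 1369 CPM in Mock Pdgfra-low libraries. PECAM1 and CDH5, which define endothelium, had 2.60 and 1.39 CPM in FGF8+10 and 0.939 and 0.956 CPM in Mock Pdgfra-positive cells, and 18.5 and 19.8 CPM in FGF8+10 and 0.676 and 1.40 CPM in Mock Pdgfra-low cells. The 4 tail bud markers, CDX2 among them, summed to 110 to 116 CPM in FGF8+10 and 32.9 to 38.1 CPM in Mock Pdgfra-positive libraries and to 104 to 108 CPM in FGF8+10 and 20.6 to 22.1 CPM in Mock Pdgfra-low libraries. In Pdgfra-positive cells nearly all of this sum was CDX2. Of the 4 markers 2 were tested, and only CDX2 was called higher with FGF8+10 in each population. TBXT, their defining marker, was at 0 in all 8 libraries. Of 3 pluripotency markers only LIN28A was tested and rose, by 1.96 and 2.38, while POU5F1 and NANOG were at or under 0.0606 CPM in every group. Between the populations under FGF8+10, 4 epithelial markers summed to 246 to 247 CPM in Pdgfra-positive and 959 to 977 CPM in Pdgfra-low libraries, with EPCAM, a defining marker, at 0.870 and 0.963 CPM. Mesothelial markers summed to 225 to 229 CPM in FGF8+10 and 402 to 405 CPM in Mock Pdgfra-positive libraries, and to 324 to 334 CPM in FGF8+10 and 539 to 545 CPM in Mock Pdgfra-low libraries, nearly all KRT19.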

How the data were processed

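Raw counts for each gene and library were deposited by the authors in 1 table that also gives exon positions and lengths. The submitters' processing notes name FastQC 0.11.8, the aligner HISAT2 2.1.0 and build GRCh38. Per the file headers, featureCounts 2.0.3 counted reads over exons of GENCODE 42 without strand, counted both mates of a pair, and dropped reads over more than 1 gene or at several places, so shared exon bases collect nothing. Library totals ran between 47698561 and 64390444 counts, and 0 sample columns were left unused.

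Counts were fitted in R 4.3.3 with edgeR 4.0.16 (limma 3.58.1), as 1 robust quasi-likelihood model of the 8 libraries with 4 group means, TMM scaling and filterByExpr, which kept 22554 of 39416 genes with any count. There were 4 residual degrees of freedom and a common biological coefficient of variation of 4.06%. Of 5 two-sided contrasts each was adjusted by Benjamini-Hochberg over all tested genes at 0.05. A standard error is the log2 fold change divided by the square root of F. CPM and RPKM were computed from the deposited counts. Scripts were tested on simulated data. Alternatives were DESeq2 1.42.0, its size factors, library totals alone, no filter, a replicate block, the compared groups alone and leaving out each library. Samples with the same replicate number did not deviate together (correlations of −0.02 to 0.02), so the number was not used as a pairing. All 9 members are named; from each list, called genes with the largest or smallest change were named. The members and lists were chosen with earlier results of these data known. RefSeq promoters were read from GRCh38.p14. Protein sequences were not used here. The genes most like HOXD3 in profile are not reported here.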

Additional observations from a re-analysis of the deposited data

How the results depend on the processing

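With 2 libraries per group the fits rest on 4 residual degrees of freedom, and where a library was left out its group's lone library was taken to vary like the others. Counts of called HOXD members stayed within 1.5 times their reported values under all alternatives run. FGF8+10 against Mock called 8 members in Pdgfra-positive cells under every alternative, and leaving out 1 library gave 8 to 8 there and 7 to 8 in Pdgfra-low cells. Pdgfra-positive against Pdgfra-low called 6 to 7 with FGF8+10 and 4 to 4 with Mock when 1 library was left out, and the difference of the FGF8+10 effects called 0 to 0. Over all genes, leaving out 1 library gave 10064 to 11528 calls for FGF8+10 against Mock in Pdgfra-positive cells and 11242 to 12684 in Pdgfra-low cells.

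In Pdgfra-positive against Pdgfra-low cells with FGF8+10, the HOXD8 call was lost with DESeq2 size factors (adjusted p = 0.0531), the DESeq2 Wald test (0.0911) and no filter on low counts (0.0598), and HOXD4 gained a call when only the compared groups were fitted (0.0459). That fit lost the HOXD3 call for FGF8+10 in Pdgfra-low cells (0.0520). Its cause was not tested.

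The changes of sign all lie in the uncalled difference of the FGF8+10 effects, close to 0. There HOXD10, at −0.01 with TMM, was 0.00141 with library totals alone and 0.0133 without a filter. Leaving out 1 library gave −0.0345 to 0.0210 for HOXD10, −0.166 to 0.0384 for HOXD9, −0.130 to 0.179 for HOXD11 and −0.150 to 0.222 for HOXD8 on the log2 scale.

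The replicate block, fitted although the numbers did not pair the samples (correlations of −0.02 to 0.02), called 8 members for FGF8+10 in Pdgfra-positive cells, 8 in Pdgfra-low cells, 7 and 4 between populations with FGF8+10 and Mock, and 0 for the difference of effects, and 11366 genes in all for the first of these. Under other scalings or exon lengths, 29 mean RPKM values of members moved by more than 1 SD of 2 libraries and 67 did not. HOXD3 and HOXD12 had the fewest counts among the tested members. For HOXD1 depth and the uncounted shared bases together set the limit given above, which lay below the HOXD3 level in the FGF8+10 Pdgfra-positive libraries.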
